A study of Mus musculus with 6 samples.

Results

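The genes described here are 9 transcription factors of the differentiating somite, namely Meox1, Meox2, Tcf15, Pax1, Pax9, Foxc1, Foxc2, Tbx18 and Myf5. They were taken by the gene name that the array gives to its spots. All 9 were on the array, with 13 probes, and 8 of them had a probe that passed the filter on dim signal, among 15023 named genes that did. RNA of whole mouse embryos at embryonic day 8.5 was measured on 1-colour Agilent arrays, 1 array per sample, after tamoxifen had been injected into the mother. The conditional knockout embryos, Brg1d/d (here CKO), and the Brg1fl/fl embryos that served as wild-type control each gave 3 samples, called biological replicates in the design text. Brg1, gene symbol Smarca4, is an ATPase of the SWI/SNF chromatin remodelling complexes. The comparison asks which genes differ in embryos with its conditional knockout. The floxed allele and the tamoxifen were common to both genotypes. The sources used here name neither the Cre driver nor the day and dose of injection, and do not say if embryos were pooled. The p-values measure the spread between these samples only.

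Somites are balls of paraxial mesoderm that bud off in pairs on either side of the neural tube. Their cells then sort into sclerotome, which makes vertebrae and ribs, and dermomyotome, which makes dermis and, through the myotome, skeletal muscle. Tcf15 (Paraxis), a basic helix-loop-helix factor, keeps the young somite epithelial, and the homeodomain factors Meox1 and Meox2 act in its further differentiation. Foxc1 and Foxc2 are forkhead factors needed to form somites at all, Tbx18 marks and maintains their anterior part, Pax1 and Pax9 are paired-box factors of the sclerotome, and Myf5 starts the myogenic programme. Most are not private to somites: Pax1 and Pax9 are also active in the pharyngeal pouches, Foxc1 and Foxc2 in head mesenchyme and vessels, and Tbx18 in the outer layer of the heart. A bulk measurement of the embryo cannot tell fewer cells of a type from less RNA per cell.

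The probes are 60 bases long and are placed by the array's annotation on build mm7. The brighter Meox1 probe is placed at chr11:101986522-101986562, a span of 41 bases, and the dimmer at chr11:101987137-101987196, and the brighter Meox2 probe at chr12:35014505-35014564. Tcf15 was read at chr2:151889804-151889863, Foxc1 at chr13:31174935-31174994, Foxc2 at chr8:119751942-119752001 and Pax9 at chr12:54640542-54640601. The brighter Tbx18 probe lies at chr9:87805811-87805870 and the dimmer at chr9:87806048-87806107. Exons and UTRs of that build were not used here. The annotated spans of the dimmer Meox2 and Pax1 probes, 10724 and 486 bases, are longer than the probe, as when a probe reads across an intron. They are shown for that reason, though no exon annotation was used to check it. Capitals mark an ATG at the start of the Pax1 probe, which has a stop codon in only 1 of the 3 forward frames. The Meox2 probe is placed at chr12:35002713-35013436, plus strand, and the Pax1 probe at chr2:147106160-147106645, plus strand.
Meox2 dimmer probe: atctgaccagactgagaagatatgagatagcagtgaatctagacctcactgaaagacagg
Pax1 dimmer probe: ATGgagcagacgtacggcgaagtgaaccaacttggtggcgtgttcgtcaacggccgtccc

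Smarca4 itself was checked first. Levels of its brightest probe were 1.49, 2.65 and 2.0 for CKO 1, 2 and 3, and 5.28, 4.45 and 4.5 for controls 1, 2 and 3, a fall of 2.69 ± 0.36 (SE; limma adjusted p 0.0114). These and all levels below are log2 signals minus the 75th percentile of the same array. The CKO levels of that Smarca4 probe were above 0, so its signal was lowered and not absent. Per array, 68.5% to 73.5% of spots were well above background. CKO 2 and the controls were scanned on 1 day and CKO 1 and CKO 3 on days of their own. CKO 1 and CKO 3 also had a dimmer brightest spike-in control, 12934 and 6905 units against 208550 to 241121 on the other arrays. The controls shared a slide and each CKO array had its own, so slide and genotype cannot be told apart. Values of CKO 2 minus the mean of the 3 controls are called same-day differences below.

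Both Meox genes were lower in CKO, and they were the 2 of 8 measured factors that passed the test (limma with Benjamini-Hochberg adjustment over 27840 probes, threshold 0.05). Over all 15023 genes the share that fell was 5.32%. No factor rose, where the share over all genes was 5.26%. At an unadjusted p under 0.05 limma gave 3 factors lower and 0 higher, and 2216 lower and 2676 higher of all 15023 genes. All 8 differences were below 0, against 45.0% of all genes. The median over the 8 was -0.98, and over all genes 0.07. In 4 of the 8 (Meox1, Meox2, Tcf15 and Foxc2) every CKO sample lay below every control, and the share of all genes with such a gap was 19.1%.

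**Figure D1:**
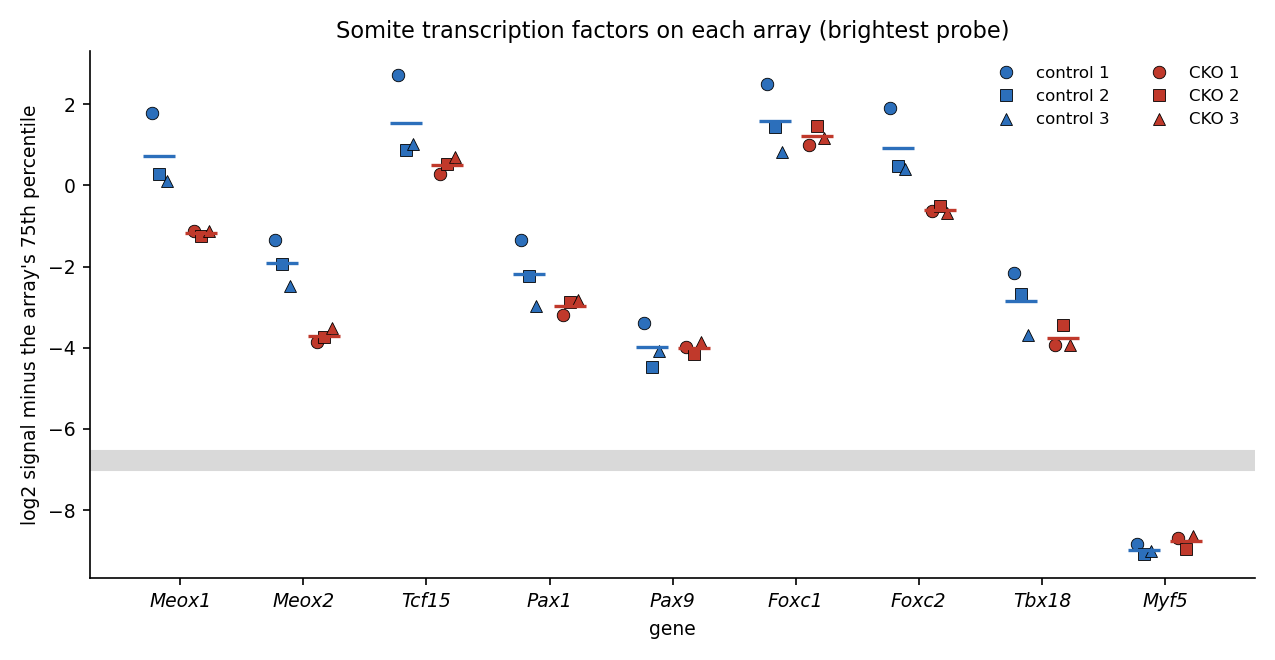
Level (log2, scaled to the 75th percentile of the array) of each factor on the 6 arrays, through the brightest probe of the gene; points are arrays, short lines are group means, and the grey band spans the lowest level that counted as well above background on the 6 arrays (-7.01 to -6.54). CKO points are close together, control 1 is the highest control for the 8 factors above the band, Myf5 lies below it, and Meox1, Meox2 and Foxc2 show the widest gaps between genotypes.

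Meox1, a homeodomain factor of the early somite, read -1.11, -1.24 and -1.13 in CKO 1, 2 and 3. In controls 1, 2 and 3 it read 1.78, 0.29 and 0.12. The CKO samples were within 0.07 (SD, n = 3) of each other, and the controls were spread by 0.91 (SD, n = 3) because control 1 was far above the other controls. Meox1 fell by 1.89 ± 0.43 (SE) on the log2 scale, a 3.70-fold difference, with a limma adjusted p of 0.0462. On its dimmer probe the CKO levels were -2.18, -2.57 and -2.41 and the control levels 0.16, -1.06 and -1.28. That probe also passed, with a difference of -1.66 ± 0.38 (SE) and a limma adjusted p of 0.0464. The same-day differences of the brighter and dimmer probes were -1.96 and -1.85. Without control 1 the difference was -1.36 and still passed (limma adjusted p 0.00749). The call was lost when any other array was left out, with limma adjusted p of 0.0517 (control 3) to 0.147 (CKO 1), and with slide as a random block (0.0562).

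Meox2, the related factor that is also active in limb muscle and vessels, gave the smallest adjusted p among the factors. It read -3.86, -3.73 and -3.52 in CKO 1, 2 and 3 and -1.35, -1.93 and -2.48 in controls 1, 2 and 3. The genotypes did not overlap. The difference was -1.78 ± 0.30 (SE), which is 3.44-fold (limma adjusted p 0.0212), and the same-day difference was -1.81. The dimmer probe printed above read -6.50, -7.59 and -7.32 in CKO and -4.66, -5.35 and -6.11 in the controls, and was well above background on 1 of the 3 CKO arrays. It entered the test only through the controls, and no difference is read from it. Without control 1 the brighter probe's difference was -1.49 (0.0158). The call was lost without CKO 1, CKO 3 or control 2, with limma adjusted p of 0.0940, 0.0747 and 0.0918.

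Tcf15, the factor of somite epithelium, was lower in CKO by a smaller amount that missed the threshold. Its levels were 0.28, 0.53 and 0.71 in CKO 1, 2 and 3 and 2.73, 0.87 and 1.01 in controls 1, 2 and 3. No CKO sample reached a control, though CKO 3 lay close to control 2, and control 1 stood 1.79 above the mean of the other controls. The difference was -1.03 ± 0.50 (SE; 95% interval -2.21 to 0.16; limma adjusted p 0.204). Without control 1 it was -0.43.

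Neither forkhead factor passed, and Foxc2 had the larger difference. Foxc2 levels were -0.62, -0.50 and -0.69 for CKO 1, 2 and 3 and 1.92, 0.47 and 0.40 for controls 1, 2 and 3, and the groups did not overlap. The difference was -1.54 ± 0.41 (SE), or 2.90-fold, and just missed the threshold (limma adjusted p 0.0667). Without control 1 the difference was -1.04 and passed (0.0142). It also passed with median scaling (0.0403), normexp background (0.0423), a robust trended fit (0.0454) and array weights (0.00281). In the other 14 settings Foxc2 did not pass. With any other array left out the limma adjusted p was 0.0742 (control 3) to 0.191 (CKO 1), and with no filter on dim probes 0.121. Foxc1 read 0.99, 1.47 and 1.18 in CKO and 2.51, 1.45 and 0.83 in the controls. Its CKO samples lay above control 3 and below control 1, with CKO 2 level with control 2. The difference of -0.38 ± 0.42 (SE; 95% interval -1.40 to 0.63) did not pass (limma adjusted p 0.553), and without control 1 it turned to 0.08.

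The paired-box factors of the sclerotome did not pass either. Pax1 is read by 10 replicate spots per array, whose SD on an array was 0.04 to 0.07. Its mean levels were -3.20, -2.87 and -2.82 in CKO 1, 2 and 3 and -1.35, -2.22 and -2.96 in controls 1, 2 and 3. Control 3 thus lay among the CKO samples. The difference was -0.79 ± 0.40 (SE; 95% interval -1.75 to 0.17; limma adjusted p 0.220). The dimmer Pax1 probe was well above background on 2 controls and on no CKO array, at -7.45, -7.11 and -6.83 in CKO and -5.82, -7.99 and -6.34 in the controls, and was not tested. Pax9 read -3.98, -4.15 and -3.85 in CKO and -3.39, -4.47 and -4.09 in the controls. The genotypes overlapped fully, with a difference of -0.01 ± 0.29 (SE; 95% interval -0.71 to 0.68; limma adjusted p 0.981). Without control 1 the Pax9 difference was 0.28.

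Tbx18, of the anterior somite, read -3.93, -3.45 and -3.92 in CKO 1, 2 and 3 and -2.16, -2.68 and -3.68 in controls 1, 2 and 3. Control 3 was below CKO 2. The difference was -0.93 ± 0.39 (SE; 95% interval -1.87 to 0.01; limma adjusted p 0.161), and that of the dimmer probe was -0.22 ± 0.47 (SE; 0.769), on a probe well above background on 2 of the 3 controls. The 2 probes also parted without control 1, at -0.59 and 0.23.

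Myf5, the first of the myogenic regulatory factors, was not well above background on any array, with 0 of the 7 to 10 spots used per array passing. It read -8.69, -8.95 and -8.64 in CKO and -8.84, -9.08 and -9.01 in the controls, below the lowest level that counted as well above background on any array (-7.01). Its only probe consists of A and T for 85% of its bases. No difference is given, since both genotypes were below the limit of measurement.

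**Figure D2:**
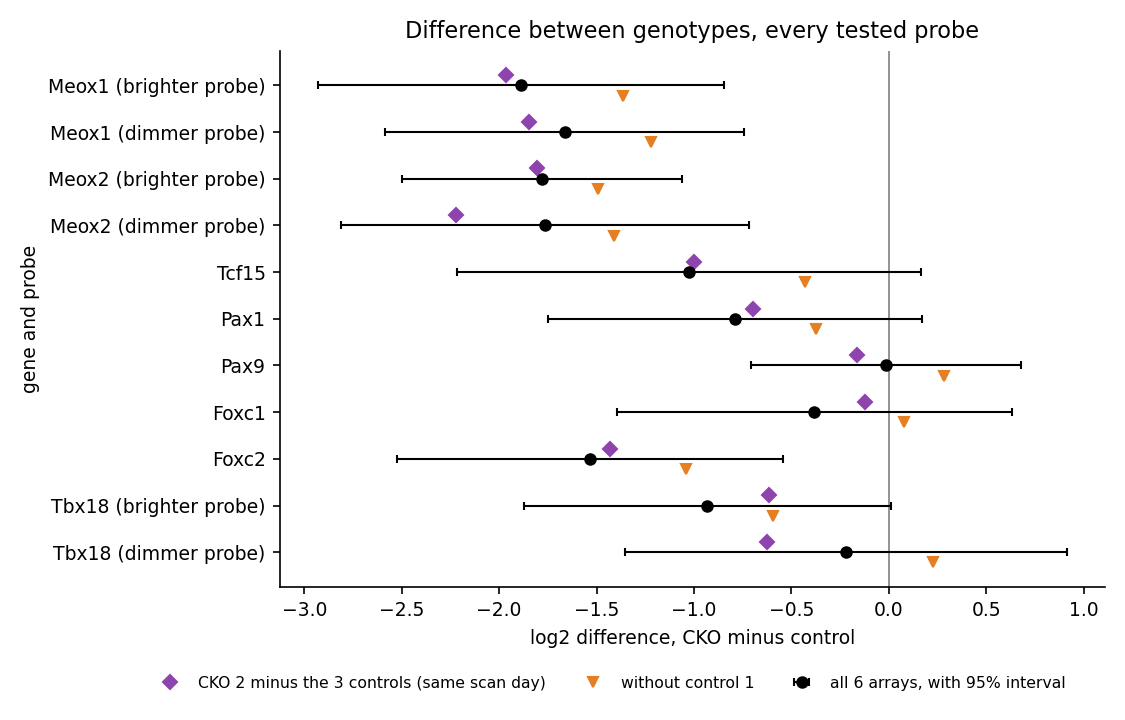
Log2 difference between CKO and control for each of the 11 probes tested, with its 95% interval (black), the same-day difference (purple) and the difference without control 1 (orange); 0 means equal levels. Both Meox1 probes, the brighter Meox2 probe and the Foxc2 probe have intervals below 0. The interval of the dimmer Meox2 probe rests on CKO readings of which 1 of 3 was well above background, and leaving out control 1 moves every probe toward or past 0.

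Gene pairs of one family were set against each other within each array, a comparison chosen after the values were seen. The log2 signal of Foxc2 minus that of Foxc1, relative to the mean of the controls, was -0.94, -1.31 and -1.21 in CKO 1, 2 and 3 and 0.07, -0.32 and 0.24 in controls 1, 2 and 3. The CKO mean was -1.15 ± 0.19 (SD, n = 3), with no overlap. The exact two-sided permutation test gave p = 0.1, which is the smallest that 3 against 3 arrays allow, and 0.3 adjusted over the 3 pairs. Without control 1 the shift was -1.12, and over all arrays left out in turn it lay between -1.31 and -1.03. For Pax1 against Pax9 the CKO values were -1.03, -0.53 and -0.77 and the control values 0.24, 0.45 and -0.68, with overlap (exact permutation p = 0.2, adjusted 0.3). For Meox1 against Meox2 the shift was -0.11, with CKO values of 0.10, -0.16 and -0.26 inside the control range of -0.43 to 0.48 (exact permutation p = 0.8, adjusted 0.8). No pair passed after adjustment.

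**Figure D3:**
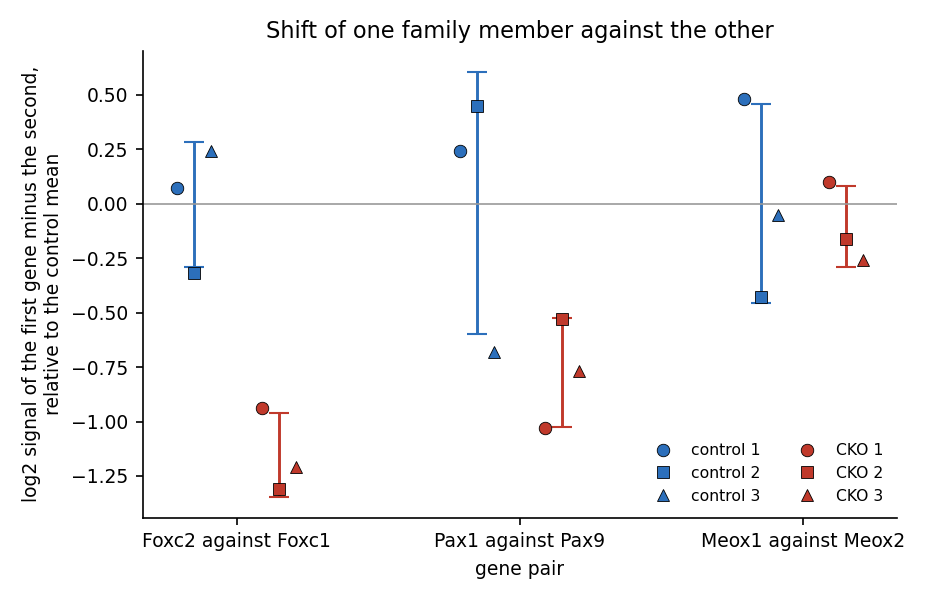
Log2 signal of the first gene minus that of the second on each array, relative to the mean of the controls, for 3 pairs of related factors; points are arrays and bars are mean ± SD (n = 3). The Foxc2 against Foxc1 points of CKO, from -1.31 to -0.94, lie below all controls, and in the other 2 pairs the genotypes overlap.

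Control 1 was the highest control for each of the 8 measured factors, where the share over all genes was 47.2%. It exceeded the mean of controls 2 and 3 by 0.86 (Meox2) to 1.79 (Tcf15), with a median of 1.31. Control 3 was the lowest in 6 of the 8. The SD among CKO samples, 0.07 to 0.27, was below that among controls, 0.55 to 1.04, for every factor. The shares over all genes for the place of control 3 and for the smaller CKO SD were not computed. Neither is read as particular to the factors. Control 1 also differed in markers of other tissues. Its 8 yolk sac endoderm markers and 8 primitive red cell markers were all below the mean of controls 2 and 3, with median differences of -2.73 and -2.81, and its 7 neural tube markers were all above it, with a median of 1.07. The part of these markers in the factors' differences was not tested. Without control 1, 3 factors passed (Meox1, Meox2 and Foxc2), where the share of all genes that fell was 7.32%, and 6 of the 8 differences stayed below 0, with a median of -0.51.

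Within the shared scan day, CKO 2 lay below all 3 controls in 4 of the 8 factors, and the share over all genes was 30.6%. These were Meox1, Meox2, Tcf15 and Foxc2, in which every CKO sample lay below every control. The count of 4 follows from that gap and is not a separate result. The median same-day difference was -0.85 over the 8 and 0.00 over all genes. With scan day as a block, in which CKO 1 and CKO 3 take up their own days and the estimate rests on CKO 2, limma called 0 factors and 0% of all genes lower. At an unadjusted p under 0.05 that fit gave 1 factor and 1067 genes lower. With the spike-in split as a block it called 0 factors and 0.586% of genes lower, with 2 factors and 1267 of 15023 genes lower at an unadjusted p under 0.05.

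The other genes of somite compartments gave a mixed picture. Of 10 measured sclerotome genes besides Pax1 and Pax9, 3 fell and 0 rose (limma; 4 lower and 0 higher at an unadjusted p under 0.05), with a median of -0.35. Col2a1, the main collagen of cartilage and also of the notochord, fell 3.05-fold (limma adjusted p 0.0319). Scx, a tendon factor, fell 2.20-fold and Sox6, a partner of Sox9 in cartilage, 1.89-fold (0.0277 and 0.0266). Bapx1 (Nkx3-2), a target of Pax1 and Pax9, was not above the filter. Without control 1, 2 of the 10 fell.

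Of 11 measured dermomyotome and myotome genes, 2 fell and 0 rose (limma; 3 lower and 0 higher at an unadjusted p under 0.05), with a median of -0.22 and, without control 1, 0.00. Dmrt2, which acts in the dermomyotome, read -3.48, -3.06 and -3.56 in CKO and -0.46, -1.85 and -2.14 in the controls, a 3.69-fold fall (limma adjusted p 0.0484). Twist2, of dermal precursors, fell 2.33-fold (0.0121). Myog and Myf6, also myogenic regulatory factors, did not pass the filter on dim signal.

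Among 12 genes of the presomitic mesoderm and the somite boundary 3 fell and 1 rose, with a median of -1.02. At an unadjusted p under 0.05 limma gave 7 lower and 1 higher. Tbx6 and Dll1, of the segmentation machinery, differed by -2.30 and -1.68, and Mesp1 rose by 1.99 on the log2 scale (limma adjusted p 0.0107, 0.0337 and 0.0475). The third gene counted as lower, Lfng, was well above background on 1 of the 3 CKO arrays and entered the test only through the controls. With only probes well above background on all 6 arrays, 3 genes of the list were called in place of 4. Without control 1, 5 of the 12 fell and 1 rose. Of 17 signals that pattern somites 1 fell and 1 rose (limma; 3 lower and 4 higher at an unadjusted p under 0.05), with a median of -0.05. Wnt3a, a signal of the tail bud and dorsal neural tube, fell 3.27-fold and Bmp4, of lateral and dorsal tissue, rose 2.19-fold (limma adjusted p 0.0180 and 0.0201). Without control 1, 3 of the 17 fell and 2 rose. Shh, the notochord signal that induces Pax1, differed by -0.72 ± 0.32 (SE) and did not pass (0.175). In the same list Ptch1 and Gli1 were higher by 1.51 and 0.92, and Gas1 differed by -1.18. None of them passed (limma adjusted p 0.155, 0.140 and 0.0504), and their same-day differences were 0.04, 0.87 and -1.04. The part of Shh in the Pax1 difference was not tested.

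**Figure D4:**
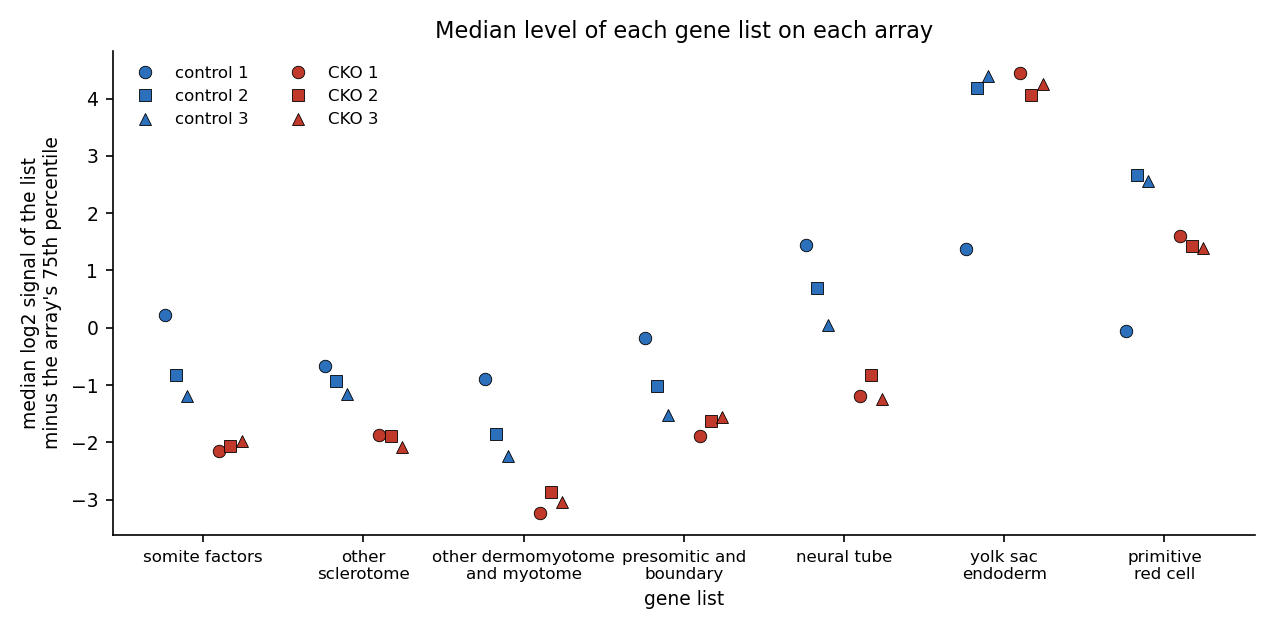
Median level (log2, scaled to the 75th percentile of the array) of the genes of a list; points are arrays. The somite factors' medians are -2.16 to -1.98 in CKO and -1.18 to 0.22 in the controls, and control 1 is the highest array in the somite and neural lists and the lowest in the yolk sac and red cell lists.

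Markers of several germ layers were measured, as the labelled tissue is whole embryo. Of 8 heart muscle markers 7 fell and 0 rose, with a median of -3.55 (Myl7 -3.32 and Tnnt2 -1.32). Of 7 neural tube markers 2 fell and 1 rose (limma; 5 lower and 1 higher at an unadjusted p under 0.05). Their median was -1.14, and Hes5 at -1.30 and Nes at -0.55 did not pass. None of 5 pharyngeal endoderm markers passed (limma; 2 lower and 1 higher at an unadjusted p under 0.05), and Foxa2 and Hhex, of endoderm, differed by 0.57 and -0.13. Among 8 markers of intermediate and lateral mesoderm, tissue beside the somites, 0 fell and 1 rose (limma; 1 lower and 3 higher at an unadjusted p under 0.05). The median there was 0.45, with Lhx1 at 1.35 and Prrx1 at 0.22. Of 5 neural crest markers none passed (limma; 2 lower and 1 higher at an unadjusted p under 0.05). The 2 lower were Sox10 at -1.94 and Foxd3 at -0.94, the 1 higher was Dlx2 at 2.21, and Ets1 differed by -0.37. None of 8 yolk sac markers passed (limma; 0 at an unadjusted p under 0.05; Afp -0.18, Cubn 0.95), nor of 8 red cell markers (limma; 1 lower and 0 higher at an unadjusted p under 0.05; Hbb-bh1 -1.43, Hba-x -1.09). Without control 1, 3 of the yolk sac and 7 of the red cell markers were called lower. Of 4 trophoblast and decidua markers 3 rose and 0 fell, and 2 rose without control 1. Of these 3, Prl8a2 (named after its values were seen) was well above background on 1 of the 3 controls and entered the test only through CKO. Elf5 rose by 3.23 (limma adjusted p 0.00111), and Prl3d1, at 3.15, did not pass (0.107). The part of any of these in the factors' differences was not tested.

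The 5 genes whose profile over the 6 arrays was most like the median profile of the factors were Itga9, Hoxa9, Whrn, Sfrp2 and Dusp7. Their root-mean-square distance from it was 0.09 to 0.11 on the log2 scale, among 14198 genes well above background on every array, which share scaling and embryos. Itga9, an integrin subunit, read -0.73, -0.43 and -0.49 in CKO 1, 2 and 3 and 1.08, 0.17 and -0.21 in controls 1, 2 and 3. The profile they share has control 1 on top, the other controls in the middle and CKO below. Of the factors Pax1 was the closest to it (0.18) and Pax9 the farthest (0.59). The profile is the median of these same 8 factors, so each distance depends in part on the factor's own values.

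RefSeq promoters (GRCm38.p6) were held for 6 of the 9 genes: Foxc1, Meox2, Myf5, Pax1, Pax9 and Tbx18. The E-box CANNTG, the letters bound by basic helix-loop-helix factors such as Tcf15 and Myf5, was present in the 250 bases before the start of 3 of them (Meox2, Pax9 and Tbx18), and in 66.2% of 32851 promoter windows of that length. The T-box core TCACAC, searched on both strands, was present in Myf5 alone and in 12.3% of all windows. The window of Meox2, the called factor among the 6, is printed with its E-box in capitals. It is chr12:37108290-37108539 of GRCm38.p6, plus strand. A match is a description of letters only.
Meox2 promoter: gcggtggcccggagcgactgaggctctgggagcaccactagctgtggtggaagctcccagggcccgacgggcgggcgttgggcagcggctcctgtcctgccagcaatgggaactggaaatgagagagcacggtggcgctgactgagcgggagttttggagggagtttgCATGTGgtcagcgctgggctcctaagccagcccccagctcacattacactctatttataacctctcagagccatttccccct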

How the data were processed

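The scanner files hold intensity values that the authors made with Agilent Feature Extraction 9.5, per the submitters' processing notes. Per the file headers, spatial and multiplicative detrending were on and the background correction option was off. Other columns deposited by the authors hold flags of 0 or 1 (unit: other). The deposited series table equalled the processed intensity at 100% of spots (relative tolerance 1e-4), and 0 of its columns belonged to other samples. Control spots were left out, and so were outlier spots, replicate spots were averaged, and log2 signal minus each array's 75th percentile was used. Probes entered the test when all 3 arrays of either genotype read them well above background, and 13 probes without a value on every array were dropped. That left 27840 probes. Names came from the array and a RefSeq table (GRCm38). The genotypes were contrasted with limma 3.58.1 (lmFit, then eBayes, two-sided; R 4.3.3), and p-values were adjusted by Benjamini-Hochberg across the tested probes. A gene was read through its brightest probe. The genes named are every member, the targeted gene, up to 4 called genes with the largest differences per pathway list, the 2 brightest genes per marker list and the 5 nearest profiles. Nkx3-2, Myog, Myf6, Shh, Ptch1, Gli1, Gas1, Sox10 and Foxd3 were added after their values were seen. The members and lists were chosen with earlier results of these data known. The fit was run on simulated data with independent noise. Those data held no scan day, slide or single-array effect, so the run does not bear on such effects here. Plots were made with matplotlib 3.10.9 under Python 3.11.15.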

Additional observations from a re-analysis of the deposited data

How the results depend on the processing

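The median difference of the factors, -0.98, kept its sign under all settings run. It depended on single control arrays, from -0.51 without control 1 to -1.32 without control 3. All settings stayed within 0.52 of the main value, the SD of the factors' median level pooled over the genotypes. That SD is itself widened by control 1, whose median level was 0.22 against -0.82 and -1.18 in controls 2 and 3. The count of 2 factors lower was 1 with no filter on dim probes or with slide as a random block, 4 with array weights (with 1 higher) and 0 with scan day, the spike-in split or the replicate block. It was 0 to 3 with an array left out. The genes lower (799) and higher (790) were 378 and 316 with no filter, 3557 and 4840 with array weights, 0 and 0 with scan day as a block (limma; 1067 and 729 at an unadjusted p under 0.05), 88 and 34 with the spike-in split, and 304 and 268 with the replicate block. Leaving out an array gave 185 to 1099 lower and 116 to 1519 higher. The cause was not tested.

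Same-numbered samples correlated in their deviations from the group means at -0.07, 0.13 and 0.06, so the numbers were not taken as pairs. With the replicate block limma gave an adjusted p of 0.0725 for Meox1 and 0.0664 for Meox2, with the same differences, and 4 factors and 1901 of 15023 genes lower at an unadjusted p under 0.05. Pax9 reversed with array weights (0.47, adjusted p 0.0490) and without CKO 2 (0.06) or control 1 (0.28), with a range of -0.26 to 0.28 over arrays left out. Foxc1 reversed without control 1, with a range of -0.77 to 0.0774, and the Meox1 against Meox2 shift likewise, with a range of -0.32 to 0.13. Tbx18 passed with array weights alone (limma adjusted p 0.00834). Quantile and median scaling, the stricter filter and the mean of probes kept both Meox calls. The series table holds the same values as the scanner files, so that setting could not change a call. Precision is limited by having 3 arrays in each group.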
